A study of Saccharomyces cerevisiae with 16 samples.

Results

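The 60S ribosomal subunit assembly factors are the proteins that build the large subunit of the ribosome and leave it before it translates. They were taken by systematic name from a list of known factors, and all 59 have a row among the 6174 of the array table. The study measured the response of Saccharomyces cerevisiae to mild alkalinisation, and it covered wild type W303-1A and MCY5278, a W303-1A derivative in which both MSN2 and MSN4 are deleted (msn2::kanMX4 msn4::hphMX4). Both deleted genes encode transcription factors, related to each other, that switch on general stress genes. Cultures growing exponentially in YPD, a rich glucose medium, received 20 mM KOH, which brought the medium to pH 8, or 20 mM KCl, and were harvested after 10 or 30 min. Each of the 16 arrays carried KOH-treated cells in one dye and KCl-treated cells of the same strain and time in the other. The 4 groups were therefore the strains at each of the times, with 4 arrays in every group. The mutant was 1 strain, so its genotype and any other difference of that strain cannot be told apart.

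A new large subunit starts in the nucleolus, where early factors fold the long ribosomal RNA precursor around the first ribosomal proteins. Helicases, GTPases and AAA-ATPases then remodel the particle as it moves through the nucleoplasm, and export factors take it to the cytoplasm, where the last factors are stripped off and recycled. In growing yeast these genes form a large part of the ribosome biogenesis regulon, which is expressed in step with growth and is known to be turned down by many stresses. NSA1 encodes a nucleolar factor that sits on early particles with Rpf1, Mak16 and Rrp1 and is removed from them by the AAA-ATPase Rix7.

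All values below are log2 ratios of KOH over KCl after each array was centred on its median over all genes, so a value of 1 is a 2-fold excess in KOH relative to the middle gene of that array. Base and direction of the deposited ratios are assumed, not stated, and every fall and rise below rests on that direction. Changes are limma estimates with dye as a term, the error after ± is the model's standard error, and n is 4 unless stated. Testing a gene required, in every group involved, at least 3 arrays with a value and both dyes among them. It is said to have fallen or risen only at a Benjamini-Hochberg adjusted p below 0.05 over all genes tested. The labels give 2 biological replicates per condition with dye swaps but not which arrays share an extract, so each array counted as 1 sample and the p-values are too small. A ratio carries no level, so strains are compared by their responses, and since whole cultures were extracted, fewer cells with a transcript and less RNA per cell cannot be told apart.

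Between 2073 and 5443 genes, and 23 to 55 of the 59 factors, had a value on any 1 array. Within a group the arrays correlated at 0.54 to 0.87 over all genes, which are not independent, and every pair of opposite dyes correlated positively. At 30 min arrays 1 and 2, and arrays 3 and 4, were most alike, at 0.87 and 0.78 in wild type and 0.87 and 0.86 in the mutant against 0.54 to 0.73 for the other pairs. This is a hint from the data only, and the labels do not say that these arrays share an extract. All 8 mutant arrays gave a value for MSN2, and 5 of them, 2 at 10 min and 3 at 30 min, gave one for MSN4. What those probes measured is not known, so the deletions could not be checked here. Array 3 of the mutant at 30 min had the widest spread over all genes, with an SD of 1.04 on the log2 scale, so the count for that group is given with and without it.

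The assembly factors were lower in KOH than in KCl on every array. Their median log2 ratio on the 4 arrays of wild type at 10 min was -0.66, -0.69, -1.41 and -1.07. In the mutant at 10 min it was -0.61, -1.14, -1.29 and -1.02. At 30 min the 4 wild type arrays lay closely together at -0.80, -0.83, -0.96 and -0.82. The mutant arrays at 30 min stood at -0.47, -0.46, -0.996 and -0.57. The 4 groups overlapped in this median except at 30 min, where 3 of the mutant arrays lay above all 4 of wild type and the exception was array 3. In each group the mean of the arrays with KOH in Cy5 was lower than that of the arrays with KOH in Cy3, by most in the mutant at 10 min (-1.22 against -0.81), which is why dye was kept in the model. Which factors have a value differs between arrays. For the 11 factors with a value on all 16 arrays, the array median averaged -0.88 ± 0.22 (SD, n = 4) in wild type and -0.51 ± 0.08 in the mutant at the earlier time, and -0.48 ± 0.23 and -0.29 ± 0.20 at the later.

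**Figure D1:**
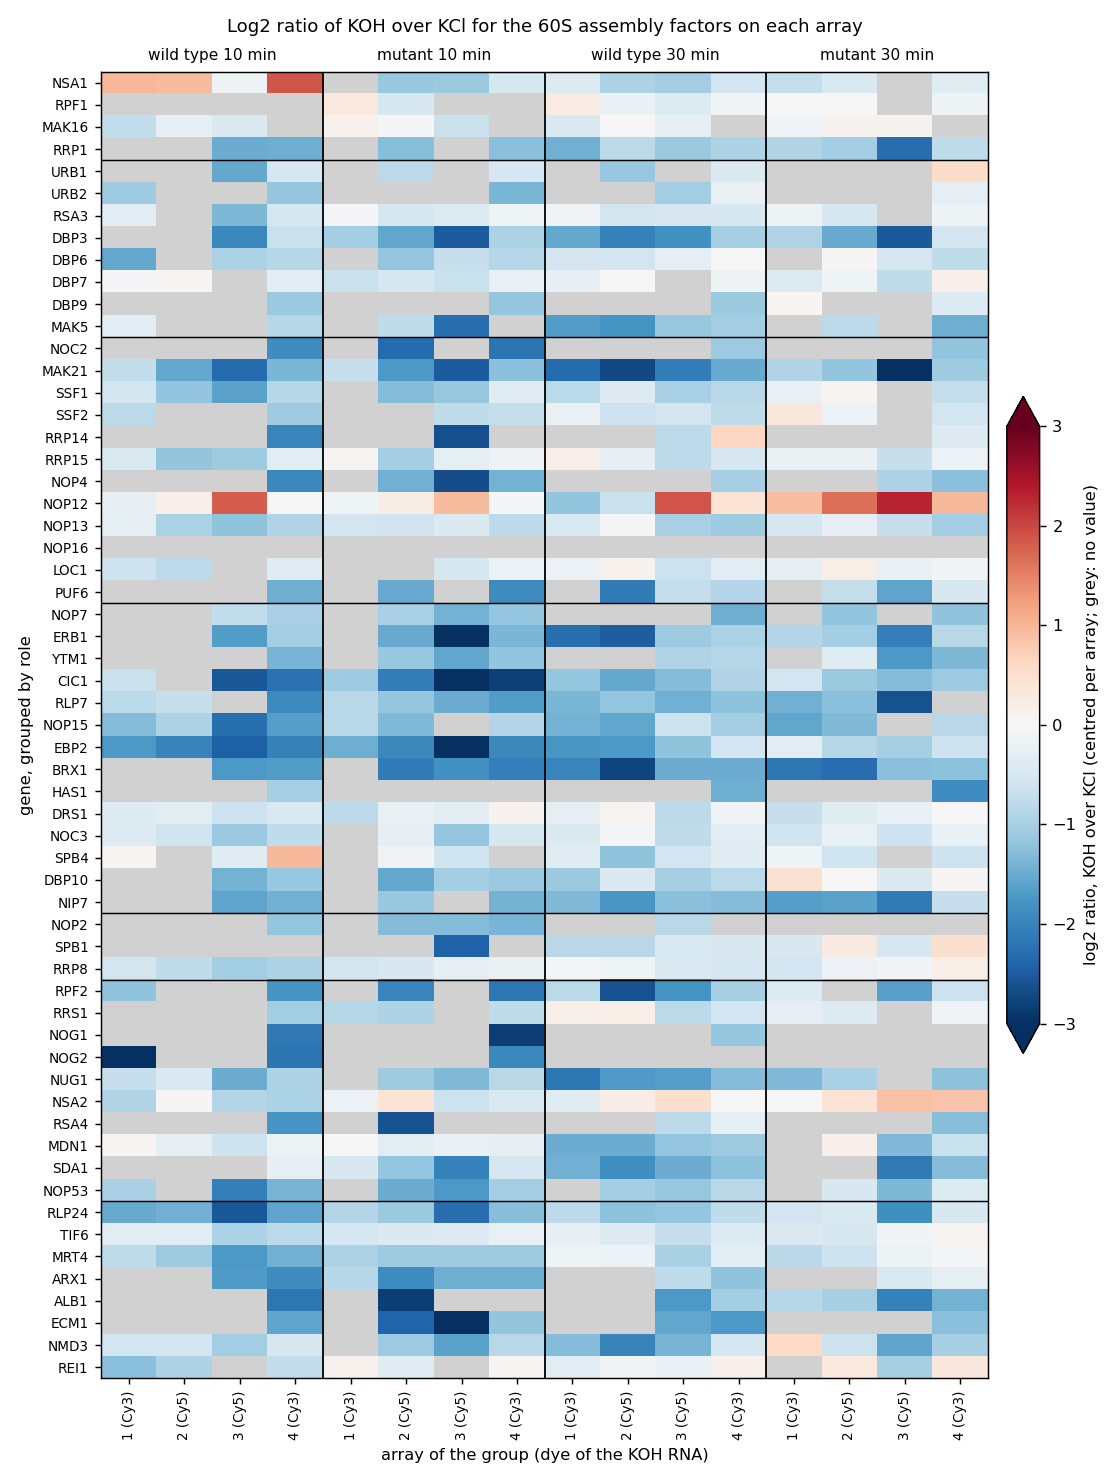
Log2 ratio of KOH over KCl for each of the 59 factors (rows, grouped by role) on each of the 16 arrays (columns, with the dye of the KOH RNA); grey cells hold no value and the colours end at -3 and 3. Blue prevails in all 4 groups, while NSA1 is red on 3 of the 4 arrays of wild type at 10 min and NOP12 on all 4 arrays of the mutant at 30 min.

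The filter on missing values left 28 factors to test in wild type at 10 min. Of these 28, 23 fell and 1 rose, against 20.9% of all tested genes that fell and 21.8% that rose (42.7% in either direction), and the median change was -0.82 for the factors and -0.04 for all genes. The fall reached 2-fold in 11 of the 28, against 111 of 2670 genes. Without array 1, 13 of the 18 factors still testable fell and 1 rose, and without array 4, 14 of 19 fell and 1 rose. In the mutant at 10 min 38 factors were tested and 30 fell, against 17.9% of all genes (36.5% in either direction). Their median was -1.04, with -1.05 for those other than NSA1 and 0.01 for all genes. Of the 38, 21 fell at least 2-fold, against 123 of 3042 genes. Without array 2, 3 or 4 of this group 11 of 19, 14 of 22 and 12 of 20 testable factors fell, and the median of those tested was -0.58, -0.72 and -0.58. No factor rose there in limma, where the background of rises was 18.6%. Counted in either direction, 32 of the 38 had an unadjusted p below 0.05, against 1411 of 3042 genes. Of the 38 estimates 37 lay below 0. The 1 tested factor above 0 was NOP12, at 0.26 ± 0.32 (adjusted p = 0.564).

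At 30 min 42 factors were tested in either strain. In wild type 28 fell and 0 rose in limma, against 18.8% and 19.2% of all genes (38% in total). Counted in either direction, 31 had an unadjusted p below 0.05, against 2001 of 4288 genes. The median of the factors was -0.75, with 17 falls of at least 2-fold, against 278 of 4288 genes. In the mutant 21 fell and 2 rose, against 19.1% and 22% (41.1% in total), with a median of -0.57. Falls of at least 2-fold numbered 13, against 290 of 4234 genes. Without array 3 of the mutant 14 of 33 testable factors fell and 1 rose, and without array 4, 12 of 26 fell and 1 rose. Because the tested set differed from group to group, the 26 factors tested in all 4 groups were also taken alone. Their median was -0.83 in wild type and -0.73 in the mutant at 10 min, and -0.54 and -0.42 at 30 min. Of these 26, the number that fell was 22, 18, 15 and 12 in the same order. The fall was thus present in both strains and both times, and 10 factors fell in all 4 groups: MAK21, NOP13, CIC1, RLP7, NOP15, EBP2, NUG1, NOP53, RLP24 and NMD3. They range from the nucleolar Noc protein Mak21 to the export adaptor Nmd3. In total 49 factors could be tested in at least 1 group, 47 of them fell in at least 1, and 26 fell in every group where they were tested. The shares of all genes for these counts over several groups, and for the 10 that fell in all 4, were not computed. The shares of single groups are not their background.

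NSA1 (YGL111W) was the 1 factor that rose in wild type at 10 min. Its 4 arrays there stood at 0.99, 0.96, -0.16 and 1.89, so 3 arrays were high and array 3 lay near 0. In the mutant at 10 min it had values on arrays 2, 3 and 4, at -1.13, -1.12 and -0.52, all below the lowest wild type array. At 30 min the wild type arrays read -0.42, -0.94, -1.04 and -0.58. The mutant at 30 min, measured on arrays 1, 2 and 4, read -0.70, -0.46 and -0.36, and these overlap with wild type at that time. NSA1 was thus above 0 on 3 arrays and below 0 on the other 11 with a value.

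In the model NSA1 rose by 0.92 ± 0.19 in wild type at 10 min (1.89-fold, adjusted p = 0.00107). Fitted on the larger slide-number series alone, which leaves out array 4 of every group, the rise was 0.65 ± 0.21 (adjusted p = 0.0314, n = 3). NSA1 fell in the mutant at 10 min, to -0.83 ± 0.22 (adjusted p = 0.0089, n = 3), and in wild type at 30 min, to -0.74 ± 0.19 (adjusted p = 0.0068). The mutant at 30 min gave -0.60 ± 0.23 (adjusted p = 0.0462, n = 3), a call close to the threshold that was lost without array 1 (-0.41, adjusted p = 0.251) or array 4 (-0.58, adjusted p = 0.125). The call in the mutant at 10 min was lost without array 4 (-0.85, adjusted p = 0.0595). Each of these omissions left NSA1 with 2 arrays in the group, so the values come from a fit that asked for 2 arrays in any dye, a setting chosen after seeing the data. The difference between the strains at 10 min was -1.75 ± 0.29, or 3.36-fold (adjusted p = 0.0032, n = 4 and 3). Without array 2, 3 or 4 of the mutant NSA1 could be tested only with that setting. Leaving out 1 array at a time kept the difference between -2.07 and -1.52, with adjusted p from 0.00024 to 0.0351. At 30 min the difference was 0.14 ± 0.29 (adjusted p = 0.833), and the response of wild type moved by -1.66 ± 0.27 from 10 to 30 min (adjusted p = 0.000456). NSA1 also had a dye term of -0.57, with lower values where KOH was in Cy5. In wild type at 10 min the Cy3 arrays were 0.99 and 1.89 and the Cy5 arrays 0.96 and -0.16, so the strains did not overlap within either dye.

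Set against the other factors on the same array, NSA1 stood apart in wild type at 10 min. Its ratio minus the median of the others was 1.67, 1.69, 1.29 and 2.98 on the 4 arrays, a mean of 1.91 ± 0.74 (SD, n = 4). It ranked 1st of the factors on 3 arrays and 2nd, behind NOP12, on array 3. The low array 3 was therefore also an array on which the other factors were low, with a median of -1.45. In the mutant at 10 min the same difference was 0.01, 0.19 and 0.52 (mean 0.24 ± 0.26, n = 3), and NSA1 ranked between 15th and 24th. At 30 min it averaged 0.10 ± 0.26 in wild type (n = 4) and -0.01 ± 0.24 in the mutant (n = 3). Outside wild type at 10 min NSA1 thus lay in the middle of the factors. This contrast is a description without a test, because NSA1 was singled out with its response known.

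**Figure D2:**
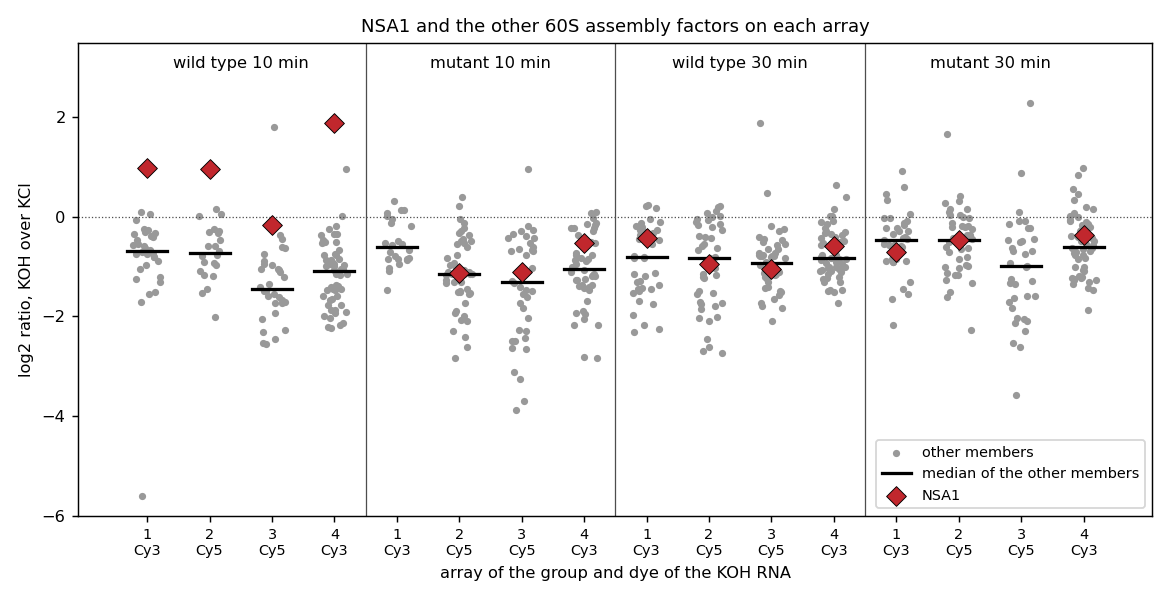
Log2 ratio of KOH over KCl (vertical axis) of NSA1 (red diamonds) and of each other factor (grey points) on the 16 arrays (horizontal axis, with the dye of the KOH RNA); black bars mark the median of the other factors. NSA1 lies 1.29 to 2.98 above that median on the wild type arrays at 10 min and within 0.52 of it on every other array where it has a value.

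Of the 3 partners of Nsa1 on the early particle, MAK16 was the 1 that could be tested in wild type at 10 min, where NSA1 rose. MAK16 (YAL025C) read -0.74, -0.25 and -0.44 on arrays 1 to 3 of wild type at 10 min and fell by 0.50 with an error of 0.17 (adjusted p = 0.0328, n = 3). It did not pass elsewhere, at -0.20 ± 0.17 in the mutant at 10 min (adjusted p = 0.373, n = 3) and at -0.24 ± 0.18 and 0.02 ± 0.17 in wild type and mutant at 30 min (n = 3). RRP1 (YDR087C) had only 2 arrays per strain at 10 min and was not tested there, but all 4 values were low, -1.49 and -1.47 in wild type and -1.27 and -1.25 in the mutant. At 30 min RRP1 fell in both strains, by 1.07 with an error of 0.21 in wild type and by 1.25 with an error of 0.21 in the mutant, with array 3 at -2.29, below the range of -1.03 to -0.76 of the rest. RPF1 (YHR088W) was not measured in wild type at 10 min, and the mutant had 2 values (0.32 and -0.48). It was the 1 factor that was tested and passed nowhere, with -0.11 ± 0.14 in wild type (adjusted p = 0.558) and -0.12 ± 0.17 in the mutant (adjusted p = 0.59, n = 3) at 30 min. Of the 4 genes of this module, RRP1 fell at least 2-fold while MAK16 and RPF1 stayed within 0.50 of 0 in every tested group.

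Over all arrays the 5 genes most like NSA1 were not assembly factors. Few of the genes compared were factors, so their absence there says little. Among 2770 genes sharing at least 12 arrays with it, the highest Pearson correlations were those of SSE2, a co-chaperone of the Hsp110 family (0.89, n = 12), and RTC5 (0.88, n = 12). YGP1, a secreted cell wall-related glycoprotein (0.86, n = 13), TNA1, the nicotinic acid permease (0.86, n = 14), and PAM16, a subunit of the mitochondrial import motor (0.83, n = 12), came next. The closest factor was SPB4, a helicase, at 0.80 over 12 arrays, in rank 12 of 2770. These correlations run over arrays that share groups and dyes, and they describe likeness of pattern only. Of these 5 genes, RTC5, YGP1 and TNA1 could be tested in wild type at 10 min, and TNA1 was the 1 of the 3 that rose, by 1.04 ± 0.19 (adjusted p = 0.000283), against 0.22 ± 0.19 in the mutant (adjusted p = 0.386). Its difference between the strains, -0.82 ± 0.27, did not pass (adjusted p = 0.23). SSE2, first by correlation, rose at 30 min in wild type (0.54 ± 0.17, adjusted p = 0.0207) and in the mutant (0.62 ± 0.17, adjusted p = 0.0103), where NSA1 fell. SPB4 read 0.09, -0.36 and 0.97 in wild type at 10 min, 0.14 ± 0.20 in the model (adjusted p = 0.605, n = 3), and it fell at 30 min in wild type, to -0.62 ± 0.17 (adjusted p = 0.0127). On the chromosome NSA1 lies between TAF6, a subunit of TFIID, and CUE3. TAF6 stood at 0.14 ± 0.16 in wild type (adjusted p = 0.527, n = 3) and -0.26 ± 0.16 in the mutant (adjusted p = 0.24, n = 3) at 10 min, and CUE3 had too few values to be tested there.

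Among the early helicases and the Urb1 group, DBP3 (YGL078C), a helicase that speeds an early cleavage of the precursor, fell most. Its mutant arrays at 10 min read -1.02, -1.55, -2.50 and -0.95, or -1.50 ± 0.18 in the model. At 30 min it stood at -1.60 ± 0.18 in wild type and -1.38 ± 0.18 in the mutant, and in wild type at 10 min only arrays 3 and 4 had a value (-1.93 and -0.67). DBP6 and RSA3 act together in the Urb1 complex. DBP6 fell in wild type at 10 min, to -1.10 ± 0.19 (n = 3), and in the mutant, to -0.92 ± 0.19 (n = 3), but passed in neither strain at 30 min. RSA3 fell in wild type at both times, to -0.80 ± 0.14 (n = 3) and -0.41 ± 0.12. DBP7, another helicase of this stage, was near 0 in wild type at 10 min, at -0.12 ± 0.17 (adjusted p = 0.61, n = 3), and fell in the mutant, to -0.52 ± 0.14. MAK5, tested in wild type at 30 min only, read -1.69, -1.79, -1.13 and -1.05 there, a fall to -1.41 ± 0.24. Of the 8 members of this group, 2 of 3 tested fell in wild type and 3 of 4 in the mutant at 10 min, and 3 of 5 and 1 of 4 at 30 min. The shares of all genes that fell were 20.9%, 17.9%, 18.8% and 19.1% in these groups, and 1 of 4 is near the last.

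Of the Noc, Ssf and Rrp proteins, MAK21 (YDR060W), the Noc1 protein of the earliest particles, fell in all 4 groups. Wild type read -0.75, -1.53, -2.32 and -1.36 at 10 min and -2.30, -2.70, -2.08 and -1.51 at 30 min, and the highest of these 8 values was -0.75. The model gave -1.49 ± 0.28 and -2.15 ± 0.28, the latter a 4.44-fold fall. The mutant fell to -1.55 ± 0.28 at 10 min and -1.68 ± 0.29 at 30 min, the last with array 3 at -3.57 and the other 3 between -1.17 and -0.90. SSF1 fell in 3 of 4 groups, to -1.05 ± 0.18 and -0.90 ± 0.21 (n = 3) in the strains at 10 min, wild type first, and to -0.75 ± 0.18 in wild type at 30 min. SSF2, its near-identical paralog, could be tested at 30 min only and fell in wild type, to -0.53 ± 0.16. The probes of SSF1 and SSF2 may not separate the pair. NOP4, an RNA-binding protein, fell to -1.80 ± 0.26 in the mutant at 10 min (n = 3) and had too few values elsewhere. PUF6 fell at 30 min in both strains, to -1.17 ± 0.28 (n = 3) and -0.87 ± 0.29 (n = 3), while LOC1 fell in wild type at 10 min alone of its 3 tested groups, to -0.60 ± 0.16 (n = 3). Both bind the ASH1 mRNA as well as early large subunit particles. RRP15 likewise fell in wild type at 10 min, to -0.76 ± 0.15, and stood between -0.34 and -0.32 in the other 3 groups.

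NOP12 (YOL041C), an RNA-binding protein of the same stage, was 1 of the 3 factors that rose in any group, with NSA1 and NSA2. Its arrays in the mutant at 30 min read 0.92, 1.66, 2.30 and 0.98, all above 0, and the model gave a rise of 1.46 ± 0.33 (2.76-fold, adjusted p = 0.00252). Wild type at 30 min read -1.19, -0.67, 1.89 and 0.41, with arrays on both sides of 0, and gave 0.11 ± 0.33 (adjusted p = 0.811). Array 3 was the highest of the 4 in every group, at 1.81 in wild type and 0.96 in the mutant at 10 min, where the other arrays lay between -0.24 and 0.23. The difference between the strains at 30 min, 1.35 ± 0.46, did not pass (adjusted p = 0.111).

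The 27S processing group held the 2 largest falls of wild type at 10 min, EBP2 and CIC1. In wild type at 10 min 6 of 7 tested fell (median -1.13) and in the mutant 10 of 11 (median -1.29), with 9 of 11 in wild type (median -1.22) and 8 of 12 in the mutant (median -1.09) at 30 min, against the same shares of all genes. EBP2 (YKL172W), a nucleolar protein of this step, read -1.71, -2.01, -2.45 and -2.03 in wild type and -1.46, -1.94, -3.12 and -1.94 in the mutant at 10 min. The strains overlapped fully there, with falls of 4.14-fold and 4.33-fold. At 30 min EBP2 was less low, at -1.31 ± 0.20 in wild type and -0.71 ± 0.20 in the mutant. CIC1 (YHR052W), which binds the internal spacer between the large subunit rRNAs, read -1.09, -2.06, -3.88 and -2.80 in the mutant at 10 min, a 5.50-fold fall and the largest of any factor in any group tested. At 30 min the arrays of both strains lay between -1.52 and -0.58.

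The Nop7, Erb1 and Ytm1 proteins form 1 complex, and all 3 genes fell in the mutant at 10 min. ERB1 (YMR049C) stood at -1.94 ± 0.34 (n = 3), with array 3 at -3.25, YTM1 at -1.31 ± 0.24 (n = 3) and NOP7 at -1.19 ± 0.16 (n = 3). ERB1 also fell in wild type at 30 min, where arrays 1 and 2 read -2.25 and -2.46 and arrays 3 and 4 -1.08 and -0.95, and in the mutant at 30 min, to -1.20 ± 0.30. BRX1 (YOL077C), an RNA-binding factor needed at the same step, lay between -2.74 and -1.23 on all 13 arrays with a value and fell to -1.97 ± 0.25 in the mutant at 10 min (n = 3). At 30 min BRX1 fell by 1.92 with an error of 0.22 in wild type and 1.73 with an error of 0.22 in the mutant. NIP7, which binds Nop8 and the precursor, fell to -1.40 ± 0.18 and -1.51 ± 0.18 at 30 min, with values between -1.59 and -1.14 on the 4 arrays that had one at 10 min. RLP7, related to ribosomal protein L7, and NOP15 fell in all 4 groups, RLP7 from -1.13 ± 0.26 in wild type at 10 min (n = 3) to -1.78 ± 0.27 in the mutant at 30 min (n = 3). The last includes array 3 at -2.62, against -1.45 and -1.26. DRS1, a helicase with the same assignment, changed little, with a fall of 0.45 ± 0.16 in wild type at 10 min (adjusted p = 0.0281) and -0.32 to -0.28 in the other groups, where it did not pass.

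The 3 rRNA methyltransferases were sparsely measured. NOP2 read -1.30, -1.29 and -1.39 on 3 arrays of the mutant at 10 min, a tight fall to -1.34 ± 0.17, and could not be tested elsewhere. SPB1 fell in wild type at 30 min, to -0.65 ± 0.18, and did not pass in the mutant, at -0.05 ± 0.18. RRP8, which methylates a base of the large rRNA, was the 1 of the 3 with a value on all 16 arrays. It fell in wild type at 10 min, where all arrays lay between -1.05 and -0.56, and in the mutant at 10 min, where they lay between -0.55 and -0.22. At 30 min RRP8 passed in neither strain.

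Among factors of the 5S particle and of nucleoplasmic maturation, 3 of 4 tested moved between the times in wild type, against 19.9% of all genes. In the mutant 0 of 5 moved in limma, against 16.1%, and 0 of 5 is near that share. An unadjusted p below 0.05 was found for 2 of the 5 and for 819 of 2934 genes. RPF2, which with Rrs1 loads the 5S particle, fell at 30 min to -1.56 ± 0.20 in wild type and to -1.04 ± 0.24 in the mutant (n = 3), and its 4 values at 10 min, too few to test, lay between -2.17 and -1.21. RRS1 fell in the mutant at 10 min, to -0.87 ± 0.20 (n = 3), and not at 30 min, with -0.25 ± 0.17 and -0.29 ± 0.20. The GTPase gene NUG1 (YER006W) fell in all 4 groups. Wild type read -0.70, -0.46, -1.49 and -0.94 at 10 min and -2.16, -1.70, -1.65 and -1.31 at 30 min, with only array 3 at 10 min below the highest value at 30 min. MDN1 (YLR106C), also called REA1 and the giant AAA-ATPase that pulls factors off the particle, was near 0 at 10 min, at -0.25 ± 0.18 in wild type (adjusted p = 0.274) and -0.20 ± 0.18 in the mutant (adjusted p = 0.413). At 30 min MDN1 read -1.49, -1.48, -1.15 and -1.09 in wild type, wholly below its 10 min arrays, and fell to -1.30 ± 0.18. The mutant at 30 min read 0.16, -1.33 and -0.68 and gave -0.59 ± 0.21 (adjusted p = 0.0366, n = 3). SDA1, a nuclear factor needed before export, fell in the mutant at 10 min, to -1.04 ± 0.17, and in wild type at 30 min, to -1.50 ± 0.17. NOP53, which brings the exosome to the particle, fell in all 4 groups, from -1.56 ± 0.18 in wild type at 10 min (n = 3) to -0.65 ± 0.18 in the mutant at 30 min (n = 3).

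NSA2 (YER126C), a nucleolar factor of the same stage that is turned over quickly in cells, fell and rose. In wild type at 10 min it read -0.89, 0.03, -0.89 and -0.94, with array 2 apart from the other 3, and the model gave a fall to -0.67 ± 0.18 (adjusted p = 0.00623). In the mutant at 30 min it read -0.02, 0.42, 0.89 and 0.85 and rose by 0.53 ± 0.19 (adjusted p = 0.0301). The mutant at 10 min (-0.21 ± 0.18, adjusted p = 0.374) and wild type at 30 min (0.09 ± 0.18, adjusted p = 0.729) did not pass.

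The export and late factors fell in 5 of 5 tested cases in wild type and 6 of 7 in the mutant at 10 min, and in 3 of 5 and 3 of 6 at 30 min, again against 20.9%, 17.9%, 18.8% and 19.1% of all genes. RLP24 (YLR009W), a placeholder for ribosomal protein L24, led them in wild type at 10 min with arrays at -1.50, -1.44, -2.55 and -1.59, a 3.41-fold fall. ECM1, an export factor, read -2.41, -3.69 and -1.19 in the mutant at 10 min, a fall to -2.26 ± 0.34 (n = 3). ARX1, a shuttling export factor, fell there too, to -1.42 ± 0.16, and its partner ALB1 fell in the mutant at 30 min, to -1.32 ± 0.20. MRT4 (YKL009W), a relative of stalk protein P0, read between -1.73 and -0.75 in wild type and, very tightly, between -1.09 and -0.95 in the mutant at 10 min. By 30 min MRT4 passed in neither strain, at -0.39 ± 0.17 (adjusted p = 0.0768) and -0.42 ± 0.17 (adjusted p = 0.0568). REI1 (YBR267W), which recycles Arx1 in the cytoplasm, read -1.26, -0.91 and -0.74 in wild type at 10 min, a fall to -1.01 ± 0.22 (n = 3). The mutant arrays at 10 min, 0.13, -0.36 and 0.07, all lay above these. TIF6, which keeps the subunits apart until late, fell by 0.60 ± 0.13 and 0.39 ± 0.13 in wild type and mutant at 10 min and by 0.44 ± 0.13 in wild type at 30 min. NMD3, the adaptor to the exportin Crm1, fell in all 4 groups, and its mutant arrays at 30 min scattered from 0.59 to -1.59.

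The comparison of the strains addresses whether the fall of these genes differs without Msn2 and Msn4. At 10 min NSA1 was the 1 factor of 26 tested that passed. Among all genes 0.974% passed, 0.889% in the direction of NSA1 and 0.0847% in the other. An unadjusted p below 0.05 was found for 4 of the 26 factors and for 251 of 2361 genes. The other 25 differences ran from -0.53 ± 0.44 for CIC1 (adjusted p = 0.752) to 0.92 ± 0.30 for REI1 (adjusted p = 0.255), with a median of 0.18, and 0.06 for all genes. For REI1 the strains did not overlap on any array, but its difference was not past the threshold. At 30 min 0 of 40 factors passed in limma, and 1.01% of all genes passed. An unadjusted p below 0.05 was found for 5 of the 40, below the share of all genes (808 of 3978). The median difference was 0.17, against -0.05 for all genes, and 29 of the 40 were above 0, that is, with the higher ratio in the mutant. Without array 3 of wild type at 30 min 1 factor of 37 passed. DBP10 (YDL031W), a helicase of 27S processing, came closest at 0.85 ± 0.22 (adjusted p = 0.0592). Its 4 wild type arrays at 30 min read -1.12, -0.43, -0.995 and -0.81 and its mutant arrays 0.46, -0.003, -0.44 and 0.02, so that 1 mutant array reached into the wild type range. A difference that did not pass does not show that the strains respond alike, since the standard errors of these differences ran up to 0.46.

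**Figure D3:**
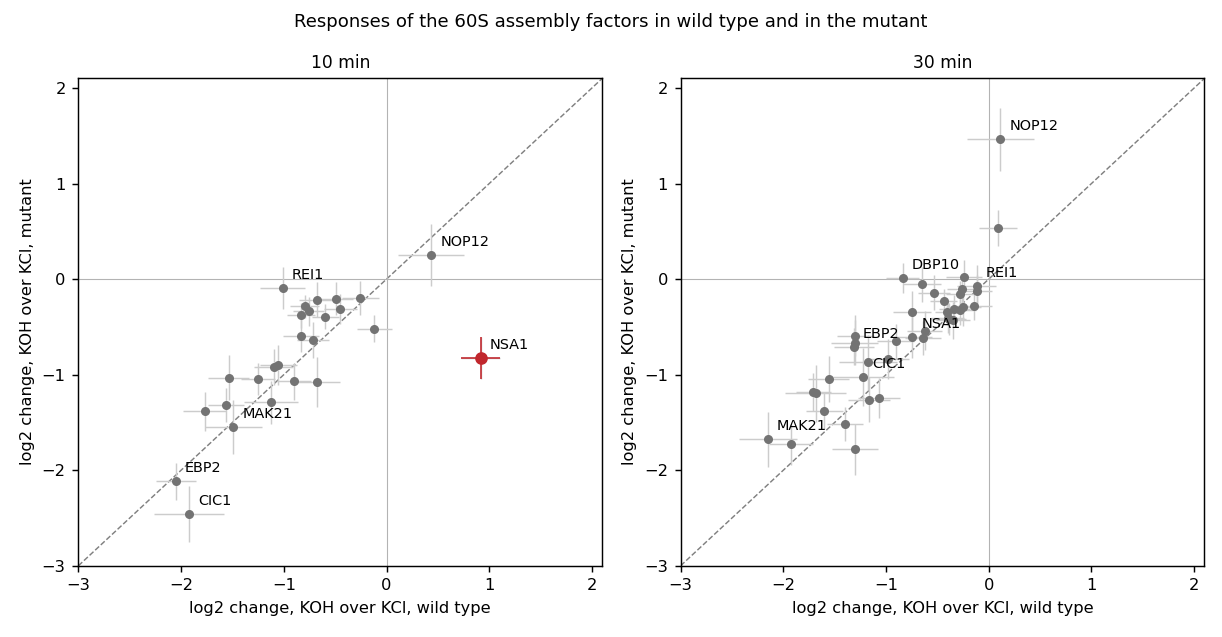
Log2 change in KOH over KCl in wild type (horizontal axis) and in the mutant (vertical axis) for the factors tested in both strains, 26 at 10 min (left) and 40 at 30 min (right); points are model estimates, bars are standard errors of the model, and the dashed line marks equal change. NSA1 (red where the difference passed the test) lies at 0.92 in wild type and -0.83 in the mutant at 10 min, away from the other 25 factors.

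Between 10 and 30 min 3 of 28 factors moved down in wild type and 5 moved up, against 13.1% and 6.83% of all genes tested (19.9% in total). The 3 of 28 is near the share of all genes that moved down. Those that moved down were NSA1, MDN1 (by -1.05 ± 0.25, adjusted p = 0.00737) and NUG1 (by -0.81 ± 0.24, adjusted p = 0.0233). Those that moved up, back towards 0, were REI1 (0.89 ± 0.28, adjusted p = 0.0374), MRT4 (0.86 ± 0.23, adjusted p = 0.0139), NSA2 (0.76 ± 0.26, adjusted p = 0.0425), DBP6 (0.75 ± 0.25, adjusted p = 0.0447) and RRP8 (0.55 ± 0.19, adjusted p = 0.0475). Of the nucleoplasmic factors that moved in wild type, the genes of the 2 energy-consuming enzymes Mdn1 and Nug1 were lower late and NSA2 was lower early. The count is sensitive to single arrays: it was 4 without array 1, 3 or 4 of wild type at 10 min or array 2 of wild type at 30 min, and 5 without array 4 of wild type at 30 min, partly with fewer factors tested. In the mutant 3 of 32 factors moved up and 0 moved down in limma, against 6.07% and 10.1% of all genes (16.1% in total). The 3 of 32 is near the share of all genes that moved up. Counted in either direction, 7 factors had an unadjusted p below 0.05, below the share of all genes (819 of 2934). The 3 that moved up were CIC1 (1.44 ± 0.41, adjusted p = 0.0216), EBP2 (1.41 ± 0.27, adjusted p = 0.00118) and DBP10 (1.21 ± 0.24, adjusted p = 0.00231). All are of 27S processing, which supplied 10 of the 32 tested. DBP10 had returned to 0.01 ± 0.16 at 30 min while CIC1 and EBP2 were still down. Without array 3 or array 4 of the mutant at 10 min 1 factor passed, of 20 and 18 tested. EBP2 in wild type, at 0.74 ± 0.27, did not pass (adjusted p = 0.0638), and whether the strains differ in these movements was not tested.

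**Figure D4:**
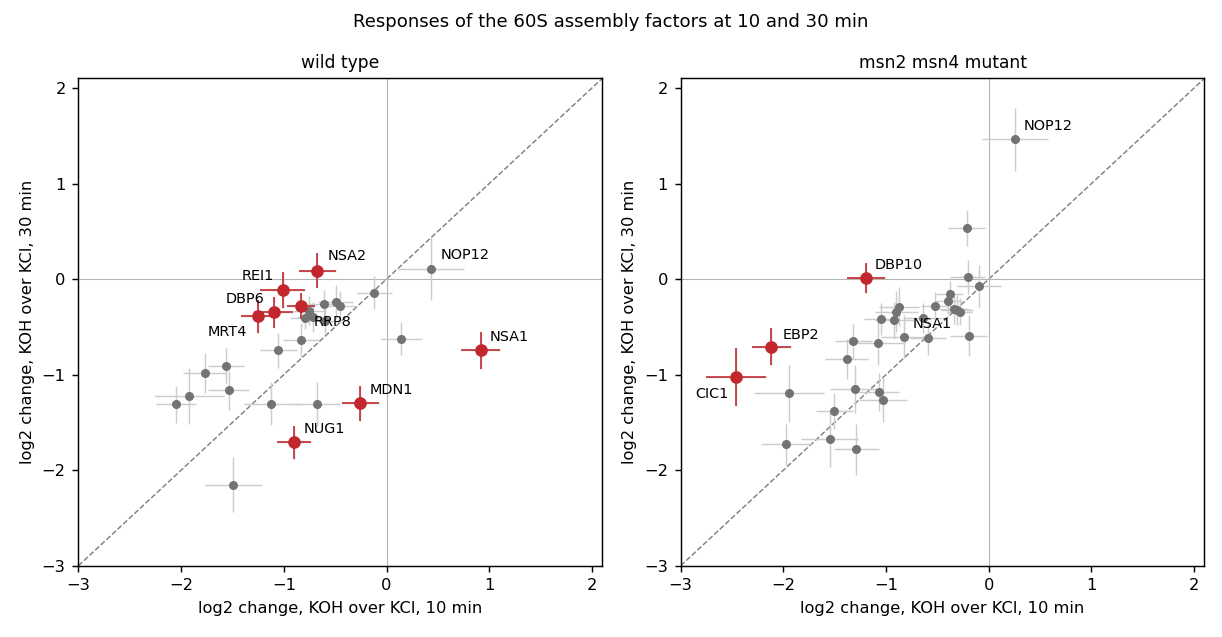
Log2 change in KOH over KCl at 10 min (horizontal axis) and at 30 min (vertical axis) for the factors tested at both times, 28 in wild type (left) and 32 in the mutant (right); points are model estimates, bars are standard errors of the model, and red marks a difference between the times that passed the test. In wild type NSA1, MDN1 and NUG1 lie below the dashed line of equal change and 5 red points above it, while in the mutant the 3 red points CIC1, EBP2 and DBP10 lie above it.

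A further 31 genes with roles in large subunit assembly, among them chaperones of ribosomal proteins and release factors, were examined beside them. Of 14, 14, 19 and 14 tested in wild type and mutant at 10 min and wild type and mutant at 30 min, 7, 8, 9 and 4 fell, against 20.9%, 17.9%, 18.8% and 19.1% of all genes, so that the 28.6% in the last group lies near the background. Their medians were -0.45, -0.43, -0.40 and -0.27. RRB1, the chaperone of ribosomal protein L3, fell in all 4 groups, to -1.21 ± 0.24, -1.28 ± 0.24, -1.77 ± 0.24 and -1.10 ± 0.28 (n = 3). CGR1 stood at -0.95 ± 0.22 and DBP2, a helicase, at -0.89 ± 0.23 in wild type at 10 min (n = 3 and 4). PWP1 fell in the mutant at 10 min, to -1.87 ± 0.29 (n = 3). At 30 min MTR4, the exosome helicase, and DBP2 fell in wild type, to -1.55 ± 0.23 (n = 3) and -1.28 ± 0.23, and IPI1 in the mutant, to -0.51 ± 0.11, while RBP95 fell in both strains, to -1.04 ± 0.27 in wild type and -1.52 ± 0.32 in the mutant (n = 3). RIX7, which removes Nsa1 from the particle, was tested in wild type at 30 min only and fell to -1.21 ± 0.32 (adjusted p = 0.0167, n = 3). REH1, a late cytoplasmic factor related to REI1, was the 1 that rose, by 0.71 ± 0.17 in wild type and 0.75 ± 0.17 in the mutant at 10 min. None of these genes passed the test of a difference between strains or times in limma, where 1, 2, 1 and 3 of 12, 13, 13 and 12 tested had an unadjusted p below 0.05. Of all genes 0.974%, 1.01%, 19.9% and 16.1% passed in the same order, so between strains 0 is near the background. The unadjusted counts over all genes were, in that order, 251 of 2361, 808 of 3978, 892 of 2607 and 819 of 2934.

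The remaining 10 factors had too few values to be tested in any group. They were URB1, URB2, DBP9, NOC2, RRP14, HAS1, NOG1, NOG2 and RSA4, with values on 3 to 7 arrays, and NOP16, with none. Of their 42 single values 39 were below 0. The exceptions were URB1 at 0.56 on array 4 of the mutant at 30 min, RRP14 at 0.65 on array 4 of wild type at 30 min and DBP9 at 0.06 on array 1 of the mutant at 30 min. The GTPase gene NOG2 had the lowest value of any factor, -5.62 on array 1 of wild type at 10 min, where array 4 read -2.20. These genes had values mostly on array 4 of each group, the array with the most genes measured. Array 4 was also the only array of each group outside the larger slide-number series, and it had KOH in Cy3. The filter behind the empty cells is not given in the sources used here, and whether it removed low or high ratios was not tested.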

How the data were processed

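RNA of 4 groups of 4 arrays each was compared on 2-colour arrays, with oligo(dT)-primed cDNA and indirect dye labelling per the labels' protocols. The values the authors deposited are log ratios, 1 for each gene on each array, taken here as log2 of KOH over KCl. Base 2 was assumed and is not stated. The highest deposited value, 16.268, lies just past what a 16-bit scanner could give in that base, and the next array's highest is 8.087. These values do not settle the base. Direction was likewise assumed. Within each group the arrays were read the same way round, since opposite-dye arrays had positive correlations. These correlations do not show whether KOH or KCl was the numerator, and they do not cover pairs of arrays from different groups. Not given in the sources used here are the scanner, how background and dyes were corrected, and why cells are empty. Of the 6174 names, 5675 matched the RefSeq table.

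Medians of the deposited arrays lay between -0.285 and 0.2615, wider than 0.1 either way, so each array was centred on its median. Group coefficients and a dye term were fitted with limma 3.58.1 in R 4.3.3 over all 16 arrays, and each of the 8 comparisons was tested over its own testable genes, two-sided, with Benjamini-Hochberg adjustment. The procedure was tested on simulated data. Alternatives dropped the dye term, fitted only the groups compared, blocked or restricted on slide-number series, or used array weights. Others took the deposited values, scale or quantile normalization, other filters on missing values or a 2-fold minimum. The rest averaged opposite-dye arrays over 16 pairings, or left out each array.

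The factors, their roles, the 31 further factors and the comparison of NSA1 with the rest were chosen with earlier results of these data known. The rule for naming takes NSA1, RPF1, MAK16 and RRP1, the 6 largest falls and 3 largest rises among those past the threshold in each group, the 6 largest differences each way, the members of each role with the largest and smallest change, and the 5 genes most like NSA1 over at least 12 shared arrays. Other factors are named to account for every one, and were named after their values were seen. The number of arrays limits the precision. Promoter sequences were not used here.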

Additional observations from a re-analysis of the deposited data

Results flagged for a closer look

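Among the 38 factors taken by the rule for naming, 81 sets of 4 arrays were examined for a single array far from the other 3. By Dixon's criterion 8 stood out, where chance flags about 1 in 20. Factors named outside that rule were not examined. Array 3 of the mutant at 30 min, the array with the widest spread over all genes, gave 3 of them. RLP24 stood at -1.83 there against -0.57 to -0.45 on the others, MAK21 at -3.57 against -1.17 to -0.90, and ERB1 at -2.05 against -1.01 to -0.83. Array 3 of wild type at 10 min gave 2, with RLP24 at -2.55 against -1.59 to -1.44 and NMD3 at -1.05 against -0.58 to -0.51. NSA2 stood at 0.0285 on array 2 of wild type at 10 min against -0.94 to -0.89. In wild type at 30 min RSA3 stood at -0.10 on array 1 against -0.55 to -0.48, and NIP7 at -1.74 on array 2 against -1.31 to -1.24.

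Another 12 results differed between strains or times by a limma test of the difference itself. NSA1 differed by -1.75 between mutant and wild type at 10 min, lower in 3 of 3 mutant arrays than in any wild type array. Between 10 and 30 min in wild type the differences were -1.66 for NSA1, -1.05 for MDN1, -0.81 for NUG1, 0.55 for RRP8, 0.75 for DBP6, 0.76 for NSA2, 0.86 for MRT4 and 0.89 for REI1. In the mutant they were 1.44 for CIC1, 1.41 for EBP2 and 1.21 for DBP10.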

How the results depend on the processing

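The number of factors past the threshold depended on the setting, while the direction of the group medians did not. Counts moved by over 1.5 times as follows. The counts over all genes also moved, and they are given for the strains at 30 min only. For the change from 10 to 30 min in wild type, 8 as reported, the count was 5 with no dye term, with only these groups fitted or with the deposited values, 3 on the larger slide series, 13 after quantile normalization, 2 with a 2-fold minimum and as low as 1 with opposite-dye arrays averaged. In the mutant, 3 as reported, it was 1 on the larger series, 5 with deposited values, 6 after scale normalization, 7 with array weights or quantile normalization and up to 9 with arrays averaged. The mutant at 30 min, 23 as reported, gave 14 on the compared group only or with a 2-fold minimum, 10 on the larger series and as few as 13 with arrays averaged. The mutant at 10 min, 30 as reported, gave 12 of 20 tested on the larger series and 13 of 19 where all 4 arrays had values, with medians of -0.57 and -0.59. A 2-fold minimum left 11 in wild type at 10 min and 17 at 30 min. The difference between strains at 30 min, 0 as reported, gave 4 with array weights and 1 after quantile normalization or with values on all 4 arrays. Over all genes 463, 98 and 116 passed in these settings, against 40 as reported. With array weights that is 463 of 3978 genes, and 4 of 40 factors is near that share. At 10 min, 1 as reported, the difference between strains gave 0 on the larger series and with values on all 4 arrays, where NSA1 had too few values to be tested. With arrays averaged it ran down to 0, and NSA1 then stood at -1.89 (adjusted p = 0.0775), but NSA1 passed in 15 of 16 pairings.

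Leaving out 1 array gave 14 to 20 factors in wild type and 11 to 25 in the mutant at 10 min, 24 to 27 and 13 to 18 at 30 min, 0 to 1 for each difference between strains, and 4 to 6 and 1 to 4 for the change in time in wild type and mutant, mostly with fewer factors testable. Without array 2 of the mutant at 30 min NSA1 turned sign in comparisons that had not passed, to -0.15 between strains at 30 min and -0.093 between times in the mutant. The fall of NSA1 in the mutant at 30 min passed in 4 of 16 pairings and was lost with no dye term, with only that group fitted, with array weights, deposited values or scale normalization (adjusted p from 0.0533 to 0.177). Its fall in wild type at 30 min passed in 14 of 16 pairings, with adjusted p up to 0.0596 in limma. Beyond fewer testable factors and stricter rules, the cause of these shifts was not tested. No paired analysis was possible because the labels number no replicates and do not say which arrays share an extract.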
